A study of Mus musculus with 6 samples.

Results

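Complement is a protein system of innate immunity in which recognition proteins, serine proteases and their substrates act in sequence on a surface. In the classical pathway C1q, built of A, B and C chains, carries the proteases C1r and C1s, which cleave C4 and C2. The alternative pathway runs through C3, factor B, factor D and properdin. C3 is the point at which the pathways meet, and membrane regulators such as CD55 and CD59 protect the cells of the host. Macrophages are the known main source of C1q in most tissues, while C3, C4 and the C1 inhibitor are also made by fibroblasts and other stromal cells. The 9 genes described here are C1qa, C1qb and C1qc, which encode the chains of C1q, the components C2, C3 and C4b, and the regulators Serping1, Cd55 and Cd59a. They were chosen by symbol as a list of complement genes and matched to the gene IDs of the deposited table, which holds 55335 genes. All 9 were found, and all 9 had a mean of at least 1 FPKM over the 6 libraries.

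The values come from polyadenylated RNA of mouse sciatic nerve at postnatal day 14. Control nerves (n = 3) were homozygous for a floxed RhoA allele (RhoAfl/fl) without Cre, and icKO nerves (n = 3) had the same floxed alleles together with ChATCreERT2. This is a drug-inducible Cre recombinase under the choline acetyltransferase gene, active in cholinergic neurons such as spinal motoneurons, whose cell bodies are not in the nerve. The labels do not give the sex of the mice, the induction schedule, whether controls received the inducing drug or whether each library of a group is its own animal. P-values therefore measure only the spread between these samples. FPKM is the number of fragments divided by transcript length and by the library total, so levels of different genes can be set side by side per length.

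Read from the smallest steps of low values, library depth came to 17200000 to 20600000 fragments. The 9 genes then rest on about 180 fragments (C1qc and Cd55 in their lowest library) to about 7100 fragments (Serping1 in its highest). Rhoa itself was at 36.5, 39.0 and 38.0 FPKM across the controls, against 36.4, 33.6 and 33.2 FPKM across the icKO libraries, a log2 difference of -0.13 (SE 0.08) that did not pass the test (limma, adjusted p = 0.195). Control replicate 2 was the only library with Xist (46.1 FPKM) and without Ddx3y, so it came from a female and the other 5 from males. Skeletal muscle transcripts were uneven. The 15 genes of that list summed to 1365 FPKM in control replicate 1 and 1617 FPKM in icKO replicate 3. The sums were 265 and 358 FPKM in control replicates 2 and 3, against 11.3 and 25.0 FPKM in icKO replicates 1 and 2. Leaving out the 2 muscle-rich libraries therefore does not even out muscle content between the groups. In that fit 12 of 14 tested muscle genes fell, with 38% of all genes called. With all 6 libraries 1 of 14 fell, with 42.9% of all genes called.

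Among the 9 genes, C3, Cd55 and Cd59a fell in icKO nerves, C4b rose, and the 3 C1q chains, C2 and Serping1 did not pass the test. A gene passed at a Benjamini-Hochberg adjusted p under 0.05 in limma, fitted on log2(FPKM + 1) over the 12860 genes whose mean FPKM was at least 1. Of all tested genes 42.9% passed, 20.8% higher and 22.1% lower in icKO nerves, so 4 passing genes of 9 (44.4%) is a share near the background and not a result about the list. The median log2 difference was -0.27 over the 9 genes and -0.01 over all tested genes. The libraries of both groups did not overlap in the same 4 genes, which held for 57.2% of all tested genes (28.4% higher and 28.9% lower). Under the alternatives the count was 6 without control replicate 1 (36.2% of all genes called), 6 without both that library and icKO replicate 3 (38%), 3 without control replicate 2 (30.5%) or icKO replicate 2 (36.2%), and 4 otherwise, including 4 without icKO replicate 1 (37.3%) and 4 with the replicate number as a block (35.7%). What follows concerns which members moved and in which direction. In a lysate, fewer cells of a type and less RNA per cell cannot be told apart.

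**Figure D1:**
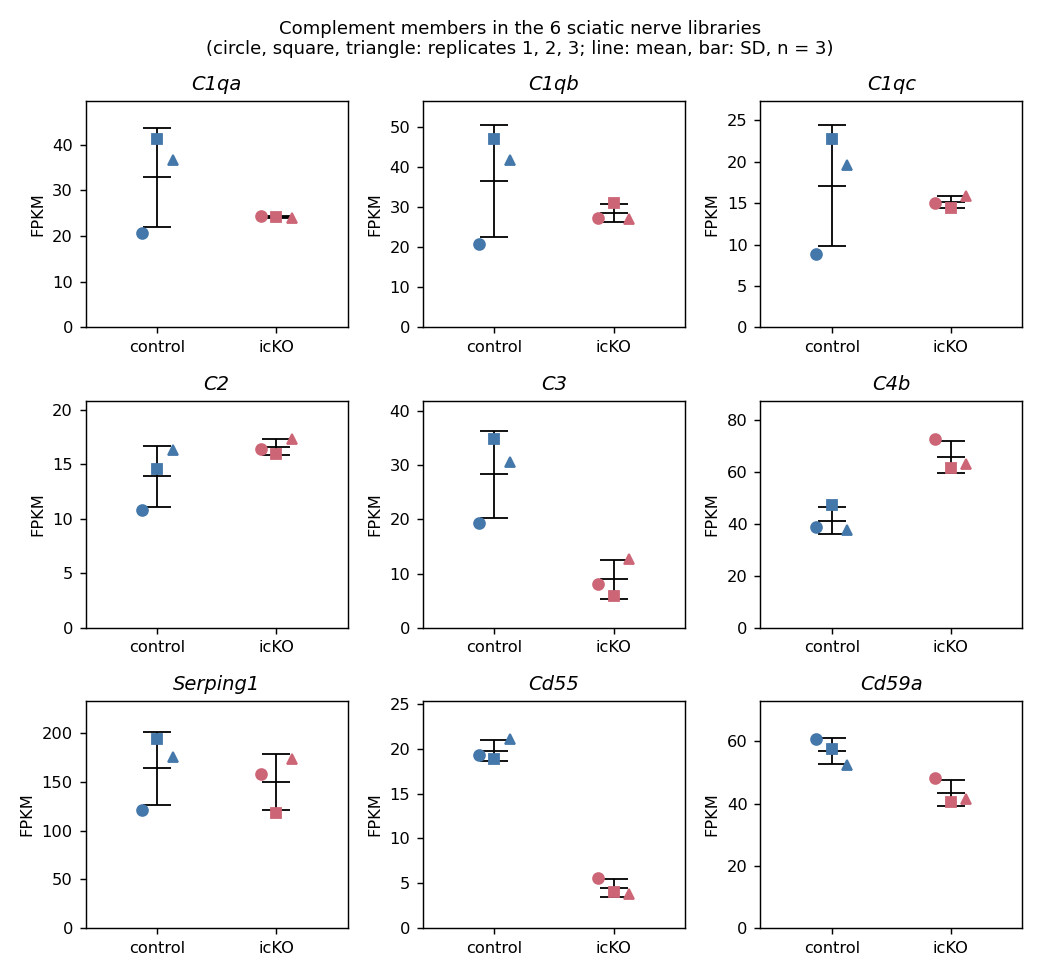
FPKM (linear axis from 0) of the 9 complement genes in each control and icKO library, 1 panel per gene, with the mean and SD of each group. The 3 icKO libraries lie below all controls for C3, Cd55 and Cd59a and above them for C4b, while control replicate 1 (circle) is the lowest control for all 3 C1q chains.

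The C1q chains were measured first. C1qa (ENSMUSG00000036887), the gene of the A chain, was at 20.6, 41.4 and 36.6 FPKM across control replicates 1 to 3, against 24.4, 24.1 and 23.9 FPKM across the icKO libraries. C1qb (ENSMUSG00000036905), the B chain gene, was at 20.7, 47.0 and 41.7 FPKM across the controls, against 27.2, 31.0 and 27.1 FPKM across the icKO libraries. C1qc (ENSMUSG00000036896), the C chain gene, was at 8.88, 22.8 and 19.6 FPKM across the controls, against 15, 14.4 and 15.9 FPKM across the icKO libraries. For each chain the icKO libraries lay close together, above control replicate 1 and below control replicates 2 and 3, so the groups overlapped. The differences on the log2(FPKM + 1) scale were -0.37 (SE 0.24) for C1qa, -0.27 (SE 0.29) for C1qb and -0.07 (SE 0.31) for C1qc. None passed (limma, adjusted p = 0.251, 0.474 and 0.864). The 3 genes are neighbours on chromosome 4 in the RefSeq annotation of GRCm38.p6, from which all neighbours given here are taken, and they share no identical stretch of 75 bases between their transcripts.

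This outcome rests on control replicate 1. Without that library all 3 chains fell, by 0.67 for C1qa, 0.62 for C1qb and 0.46 for C1qc on the log2 scale (limma, adjusted p = 0.00578, 0.0105 and 0.0210), in a fit that called 36.2% of all genes. Without both control replicate 1 and icKO replicate 3, the 2 libraries rich in muscle transcripts, they also fell (log2 differences of -0.66, -0.59 and -0.50, adjusted p = 0.0108, 0.0189 and 0.0243, with 38% of all genes called). In none of the other 16 alternatives did any chain pass. Over all alternatives the adjusted p spanned 0.00578 to 0.580 for C1qa, 0.0105 to 0.902 for C1qb and 0.0210 to 0.938 for C1qc.

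The 20 macrophage markers of a separate list, none of which is a C1q gene and none of which was at 0 in any library, summed to 132, 298 and 196 FPKM in control replicates 1 to 3. In icKO libraries they summed to 128, 121 and 121 FPKM, below every control. Without Cd74, the second most abundant of them in control nerves, the sums were 102, 219 and 152 FPKM across the controls and 120, 114 and 116 FPKM in icKO libraries, where control replicate 1 was the lowest of all 6, as for the C1q chains. Of the 17 that passed the filter, 2 fell, none rose and 15 showed no call. That is 11.8% called, against 42.9% of all genes, with a median log2 difference of -0.40. The 2 that fell were Cd74, the class II invariant chain, and Fcrls, an Fc receptor-like gene of resident macrophages. Without control replicate 1, 11 of the 17 fell, where 19.5% of all genes did. The part of macrophage content in the C1q values was not tested.

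**Figure D2:**
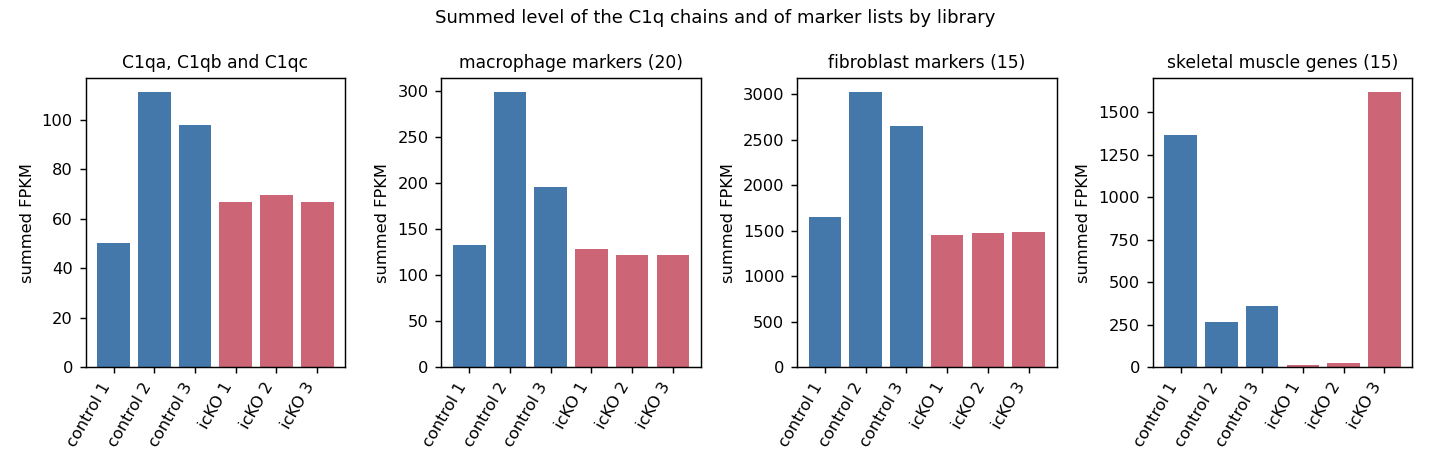
Summed FPKM (linear axis from 0) of the 3 C1q chain genes, 20 macrophage markers, 15 fibroblast markers and 15 skeletal muscle genes in each library (blue control, red icKO). Control replicate 1 has the lowest C1q sum (50.2 FPKM) and, with icKO replicate 3, the highest muscle sums.

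The C1q chains were also set against the macrophage markers within each library. The mean log2(FPKM + 1) of the 3 chains lay above the mean of the 17 tested macrophage markers by 1.57, 1.71 and 1.79 in the control libraries and by 1.87, 2.03 and 1.93 in the icKO libraries, with group means of 1.69 ± 0.11 and 1.94 ± 0.08 (SD, n = 3 each), as a description. Cd74 and Fcrls, the 2 markers that fell, add to this gap of 0.25. Because they were picked for their fall, leaving them out must narrow it. Against the other 15 markers, a comparison added after the values were seen, the chains lay higher by 1.68, 1.87 and 1.89 in control and by 1.81, 1.92 and 1.82 in icKO libraries, which overlap and leave a gap of 0.038. The ratio of C1qc to C1qa was 0.43, 0.55 and 0.54 in control and 0.61, 0.60 and 0.66 in icKO libraries, with no overlap, whereas the ratio of C1qb to C1qa was 1.0, 1.14 and 1.14 against 1.11, 1.28 and 1.13, with overlap.

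C3 (ENSMUSG00000024164), the central component of all pathways, was at 19.4, 34.9 and 30.6 FPKM across the controls, against 8.07, 5.87 and 12.8 FPKM across the icKO libraries. All icKO libraries lay below all control libraries, and icKO replicate 3 was the highest of its group. The means were 28.3 ± 8.0 and 8.91 ± 3.54 FPKM (SD, n = 3 each), so the icKO level was 0.31 of control, with a log2 difference of -1.58 (SE 0.30, limma, adjusted p = 0.00706). C3 passed in each of the 18 alternatives, with differences of -1.35 to -2.09. Of 15 fibroblast markers, 7 fell, 1 rose and 7 did not pass (53.3% called, against 42.9% of all genes), with summed levels of 1646 to 3022 FPKM in control and 1456 to 1488 FPKM in icKO libraries. Without control replicate 1, 2 or 3, the count of fibroblast markers that fell was 11, 4 or 3. Without icKO replicate 1, 2 or 3 it was 4, 5 or 6, and without both muscle-rich libraries it was 13. In the same order, these fits called 36.2%, 30.5%, 29.2%, 37.3%, 36.2%, 42.4% and 38% of all genes in either direction. Of 10 adipocyte markers, 8 fell and none rose (80% called, against 42.9% of all genes). Their sums were 371 to 445 FPKM in control against 90.0 to 196 FPKM in icKO libraries. The part of these cells in the fall of C3 was not tested.

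The sequences just before the start of 3 of these genes are shown because C3 and Cd55 had the 2 largest falls and C1qb did not pass. They are the 250 bases before the annotated start, 5′ to 3′, from RefSeq on build GRCm38.p6, whereas the deposited values were made on GRCm39. Of the 9 genes, 5 had an entry in the RefSeq promoter table. Capitals mark matches, on either strand, to any of 6 short motifs: a C/EBP-like motif (TTNNGNAA), a PU.1-like motif (AGGAAG), an ISRE-like motif (GAAA, any 2 bases, GAAA), a GAS motif (TTCNNNGAA), a glucocorticoid motif (GNACA, any 3 bases, TGTNC) and an AP-1 motif (TGANTCA).
C3, chr17:57228137-57228386, minus strand: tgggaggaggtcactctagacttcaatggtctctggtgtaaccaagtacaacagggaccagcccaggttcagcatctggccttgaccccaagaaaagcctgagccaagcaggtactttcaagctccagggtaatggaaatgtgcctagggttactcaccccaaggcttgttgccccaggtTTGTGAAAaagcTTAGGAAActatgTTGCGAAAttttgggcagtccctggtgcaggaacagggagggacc
Cd55, chr1:130462745-130462994, minus strand: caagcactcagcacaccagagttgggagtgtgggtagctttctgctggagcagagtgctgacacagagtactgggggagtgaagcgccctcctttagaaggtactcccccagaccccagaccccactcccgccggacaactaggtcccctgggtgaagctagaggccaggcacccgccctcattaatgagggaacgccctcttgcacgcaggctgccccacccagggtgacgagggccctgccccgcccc
C1qb, chr4:136886201-136886450, minus strand: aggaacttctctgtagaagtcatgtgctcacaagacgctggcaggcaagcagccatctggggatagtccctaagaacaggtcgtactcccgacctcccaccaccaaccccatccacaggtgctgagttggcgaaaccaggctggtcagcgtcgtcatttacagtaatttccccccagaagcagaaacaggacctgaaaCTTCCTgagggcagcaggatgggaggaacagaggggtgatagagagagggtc
The C3 window held 3 C/EBP-like matches, which begin 70, 58 and 45 bases before the start and do not overlap, and no match to the others. A window of this length holds at least 1 such match in 36.8% of all 32851 promoters. The C1qb window held 1 PU.1-like match 52 bases before the start, a motif found in 29.5% of promoters. The windows of C1qc and Cd59a, which are not printed, were searched in the same way. That of C1qc held 1 C/EBP-like match 81 bases and 2 PU.1-like matches 194 and 157 bases before the start. That of Cd59a held 1 ISRE-like match 187 bases before the start. The ISRE-like, GAS, glucocorticoid and AP-1 motifs occur in 2.98%, 7.02%, 0.387% and 6.75% of promoters. A match is a description of these letters.

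C4b (ENSMUSG00000073418), which encodes the C4 protein that C1s cleaves, went the other way. It was at 38.9, 47.2 and 37.8 FPKM across the controls, against 72.9, 61.5 and 63.1 FPKM across the icKO libraries, with every icKO library above every control. The means were 41.3 ± 5.10 and 65.8 ± 6.17 FPKM (SD, n = 3 each), 1.59 times the control level, with a log2 difference of 0.66 (SE 0.12, limma, adjusted p = 0.00528). It passed in each of the 18 alternatives (0.59 to 0.76). C4b has a close copy, C4a, and 23.5% of the 75-base stretches of the C4b transcript occur in C4a, so fragments of the 2 genes can be exchanged. C4a was at 0.58, 0.81 and 0.71 FPKM across the controls, against 1.12, 0.97 and 1.11 FPKM across the icKO libraries, below the filter and far below C4b. The ratio of C3 to C4b within a library was 0.50, 0.74 and 0.81 in control and 0.11, 0.095 and 0.20 in icKO libraries.

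C2 (ENSMUSG00000024371), the protease that joins C4 to form the classical C3 convertase, was at 10.8, 14.6 and 16.3 FPKM across the controls, against 16.4, 15.9 and 17.4 FPKM across the icKO libraries. The groups overlapped, and the log2 difference of 0.26 (SE 0.15) did not pass (limma, adjusted p = 0.198, and 0.101 to 0.625 over the alternatives). Its neighbour on chromosome 17 is Cfb, which encodes factor B, the alternative pathway counterpart of C2. Cfb fell from 7.66 ± 0.87 to 4.74 ± 0.79 FPKM (SD, n = 3 each, limma, adjusted p = 0.0101). The ratio of Cfb to C2 was 0.65, 0.59 and 0.45 in control and 0.27, 0.26 and 0.32 in icKO libraries, with no overlap.

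**Figure D3:**
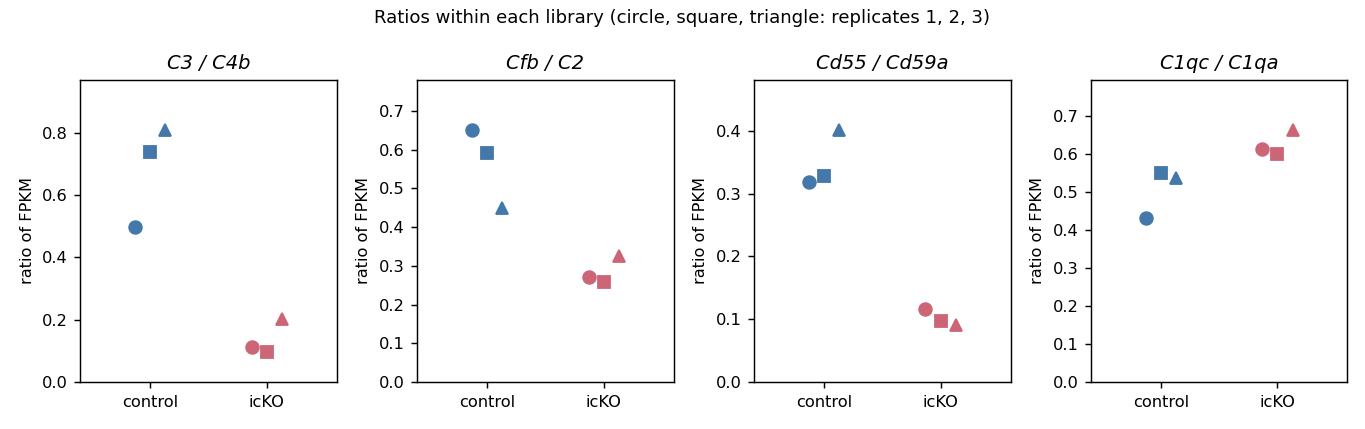
Ratios of FPKM within each library (linear axes from 0) for C3 to C4b, Cfb to C2, Cd55 to Cd59a and C1qc to C1qa, with a point per library. The ratios C3 to C4b, Cfb to C2 and Cd55 to Cd59a are lower in all icKO libraries than in any control, and that of C1qc to C1qa is higher (0.60 to 0.66 against 0.43 to 0.55).

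Among the regulators, Cd55 (ENSMUSG00000026399) changed most. It encodes a membrane protein that speeds the decay of the C3 convertases. Cd55 was at 19.4, 18.9 and 21.1 FPKM across the controls, against 5.62, 3.97 and 3.74 FPKM across the icKO libraries, and the groups were far apart. The means were 19.8 ± 1.17 and 4.44 ± 1.03 FPKM (SD, n = 3 each), 0.22 of control, with a log2 difference of -1.95 (SE 0.14, limma, adjusted p = 0.000442). It passed in each of the 18 alternatives (-1.86 to -2.17). The window before its start, printed with that of C3, held none of the 6 motifs. Its neighbouring copy Cd55b, which holds 9.39% of the 75-base stretches of the Cd55 transcript, was at 0.33, 0.028 and 0.30 FPKM across the controls, and no icKO library had a value above 0 for it.

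Cd59a (ENSMUSG00000032679), whose product blocks assembly of the membrane attack complex, was at 60.8, 57.6 and 52.6 FPKM across the controls, against 48.1, 40.6 and 41.5 FPKM across the icKO libraries. The groups did not overlap, and the log2 difference was -0.39 (SE 0.10, limma, adjusted p = 0.0209). This call was lost without control replicate 1 (log2 difference -0.34, adjusted p = 0.0645), control replicate 2 (-0.38, 0.0687) or icKO replicate 2 (-0.34, 0.0544), and without both muscle-rich libraries (-0.31, 0.102). The copy Cd59b was at 1.29, 1.35 and 1.51 FPKM across the controls, against 0.61, 0.59 and 0.29 FPKM across the icKO libraries, below the filter. In the alternative with no filter Cd59b passed as a fall (log2 difference -0.68, limma, adjusted p = 0.0144), with 20% of all genes called. The ratio of Cd55 to Cd59a was 0.32, 0.33 and 0.40 in control and 0.12, 0.098 and 0.090 in icKO libraries.

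Serping1 (ENSMUSG00000023224), the gene of the C1 inhibitor that inactivates C1r and C1s, had the highest level of the 9 genes in both groups. It was at 122, 194 and 176 FPKM across the controls, against 158, 118 and 173 FPKM across the icKO libraries, with full overlap. The log2 difference of -0.12 (SE 0.22) did not pass (limma, adjusted p = 0.671, and 0.0998 to 0.973 over the alternatives), and its sign turned when control replicate 2 or icKO replicate 2 was left out (0.012 and 0.041). Without both muscle-rich libraries it was -0.44, also without passing.

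**Figure D4:**
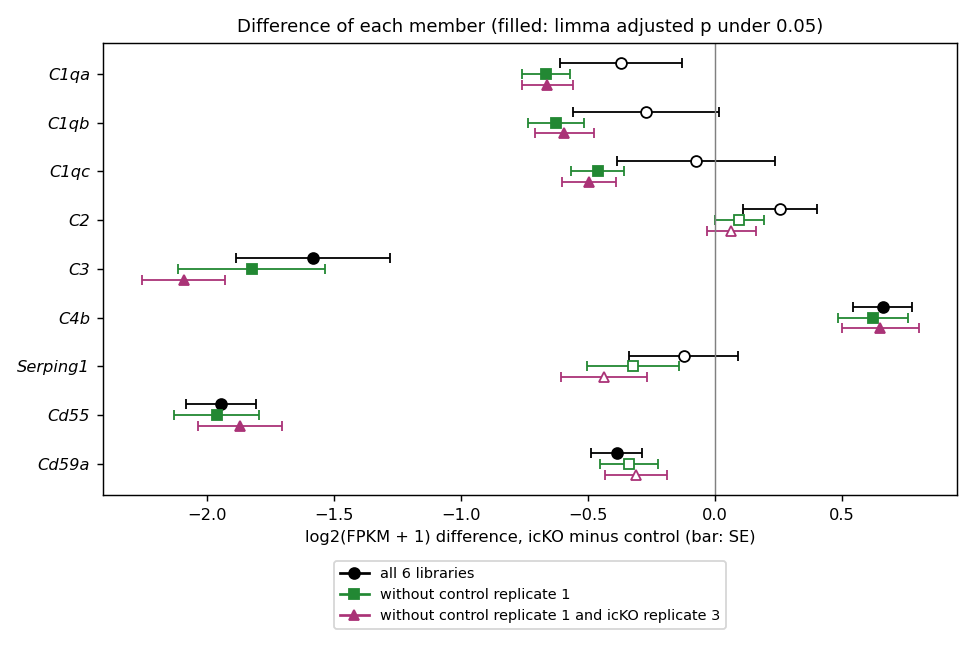
Difference of each gene between icKO and control on the log2(FPKM + 1) scale (point, with SE) with all 6 libraries, without control replicate 1, and without control replicate 1 and icKO replicate 3. Filled points passed the test: C3, Cd55 and C4b did so in all 3 fits, the C1q chains only once control replicate 1 was left out, and Cd59a only with all 6 libraries.

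The order of levels differed between the groups. In control nerves Serping1 and then Cd59a (57.0 FPKM) stood above the rest without overlap. Below them C4b (41.3), C1qb (36.5), C1qa (32.9), C3 (28.3), Cd55 (19.8), C1qc (17.1) and C2 (13.9 FPKM) each overlapped the next in their libraries. In icKO nerves C4b (65.8 FPKM) stood above Cd59a (43.4 FPKM), and C3 (8.91) and Cd55 (4.44 FPKM) came last, below C2 (16.6) and C1qc (15.1 FPKM). There no 2 neighbours in the order overlapped.

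C1q did not separate from the stromal components as a block. The mean log2 level of the C1q chains minus that of C3, C4b and Serping1 was -1.48, -0.93 and -0.91 in control and -1.07, -0.68 and -1.24 in icKO libraries, with overlap. The stromal group itself held a fall (C3), a rise (C4b) and no call (Serping1). Ratios to C3, which fell, and to C4b, which rose, differed in opposite directions: the ratio of C1qa to C3 was 1.06, 1.18 and 1.2 in control and 3.02, 4.11 and 1.87 in icKO libraries, and that of C1qa to C4b was 0.53, 0.88 and 0.97 against 0.34, 0.39 and 0.38. Across the 6 libraries, which share the group difference, Pearson's r was 0.97 for C1qa with C1qb, 0.88 for C3 with Cd55 and -0.80 for C3 with C4b, as a description.

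The other genes of the system were described from 5 lists with 53 genes, of which 21 passed the filter. Of these, 5 fell, 1 rose and 15 did not pass (28.6% called, against 42.9% of all genes), with a median log2 difference of -0.33. In the list of other C3, C4 and alternative pathway genes, the 3 tested genes, Cfd, Cfb and Cfp, all fell. Over all tested genes 22.1% fell. The remaining gene of that list, the C4 gene C4a, was below the filter, with every icKO library above every control. Cfd, the gene of factor D (adipsin), was at 404, 405 and 299 FPKM across the controls, against 59.4, 55.7 and 90.9 FPKM across the icKO libraries, a log2 difference of -2.43 (SE 0.21, limma, adjusted p = 0.000717). Factor D is a known product of fat cells, and 8 of the 10 adipocyte markers fell in the same libraries. The part of fat in this result was not tested. Cfp, which encodes properdin, the stabiliser of the alternative convertase, fell from 6.98 ± 0.59 to 3.71 ± 0.39 FPKM (SD, n = 3 each, adjusted p = 0.00187). Cfd, Cfb and Cfp passed in each of the 18 alternatives.

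The proteases of C1 did not pass. C1ra was at 13.8, 24.1 and 20.6 FPKM across the controls, against 26.8, 25.2 and 23.8 FPKM across the icKO libraries (log2 difference 0.39, SE 0.19, limma, adjusted p = 0.141, and 0.17 without control replicate 1). C1s1 was at 14.1, 27.9 and 28.1 FPKM across the controls, against 42.3, 38.4 and 13.8 FPKM across the icKO libraries, where icKO replicate 3 lay at the level of the lowest control (log2 difference 0.33, SE 0.46, adjusted p = 0.590). It passed only without both muscle-rich libraries, as a rise of 0.51 (adjusted p = 0.0162). Its difference was 0.016 without control replicate 1 and 0.82 without icKO replicate 3 (adjusted p = 0.982 and 0.0769), and its sign turned with a muscle covariate (-0.26, adjusted p = 0.177). In the list of initiation and lectin genes, 5 of 16 passed the filter, and Colec12, a collectin receptor, fell from 4.11 ± 1.27 to 2.18 ± 0.32 FPKM (adjusted p = 0.0330). It passed in 9 of 17 alternatives. Masp1, a lectin pathway protease, was below the filter at 1.0, 0.88 and 0.92 FPKM across the controls, against 0.23, 0.26 and 0.25 FPKM across the icKO libraries.

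Of 6 tested further regulators, Cd46 rose and 5 did not pass. Cd46, a membrane cofactor for C3b cleavage, was at 1.75, 1.71 and 1.43 FPKM across the controls, against 2.83, 3.05 and 1.90 FPKM across the icKO libraries (log2 difference 0.44, SE 0.14, limma, adjusted p = 0.0483). It passed in only 8 of 17 alternatives. Vtn and Clu, which encode vitronectin and clusterin, did not pass, with means of 28.2 ± 5.45 against 21.4 ± 1.24 FPKM for Vtn and 12.3 ± 1.84 against 8.76 ± 2.47 FPKM for Clu, control first (SD, n = 3 each, limma, adjusted p = 0.0773 and 0.109). Vtn passed as a fall without control replicate 1 (log2 difference -0.50 against -0.37, adjusted p = 0.0244) and without both muscle-rich libraries (-0.46, 0.0427). Cr1l, Susd4 and Csmd1 did not pass either (limma, adjusted p = 0.328, 0.274 and 0.0590). Cr1l had means of 4.39 ± 0.15 against 3.93 ± 0.57 FPKM, control first. Those of Susd4 were 1.82 ± 0.14 against 1.33 ± 0.64 FPKM, and those of Csmd1 1.06 ± 0.14 against 1.62 ± 0.30 FPKM.

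Of 7 tested receptor genes only Lrp1, a large scavenger receptor, passed, with a fall from 33.2 ± 4.59 to 24.7 ± 1.11 FPKM (limma, adjusted p = 0.0255). It lost its call without control replicate 2 or icKO replicate 1, without both muscle-rich libraries and with a muscle covariate (0.0559 to 0.0753). The anaphylatoxin receptor genes C3ar1 and C5ar1 were at 1.09 to 2.19 and 0.67 to 1.79 FPKM in control and at 1.33 to 1.70 and 0.72 to 0.82 FPKM in icKO libraries, without passing. C5ar1 passed as a fall without control replicate 1 (log2 difference -0.53 against -0.33, limma, adjusted p = 0.0256) and without both muscle-rich libraries (-0.52, 0.0420). Itgam, of the same list, was below the filter at 0.29, 1.81 and 1.46 FPKM across the controls, against 0.12, 0.11 and 0.15 FPKM across the icKO libraries. None of the 7 terminal pathway genes passed the filter, and their summed level was 0.80 to 1.57 FPKM in any library. The genes of C9 and of the C8 alpha chain, C9 and C8a, were listed at 0 in all 6 libraries. Markers of hepatocytes, the main source of plasma complement, summed to at most 1.65 FPKM, lymphocyte markers to at most 0.68 FPKM and neutrophil markers to at most 6.08 FPKM, and none passed the filter.

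**Figure D5:**
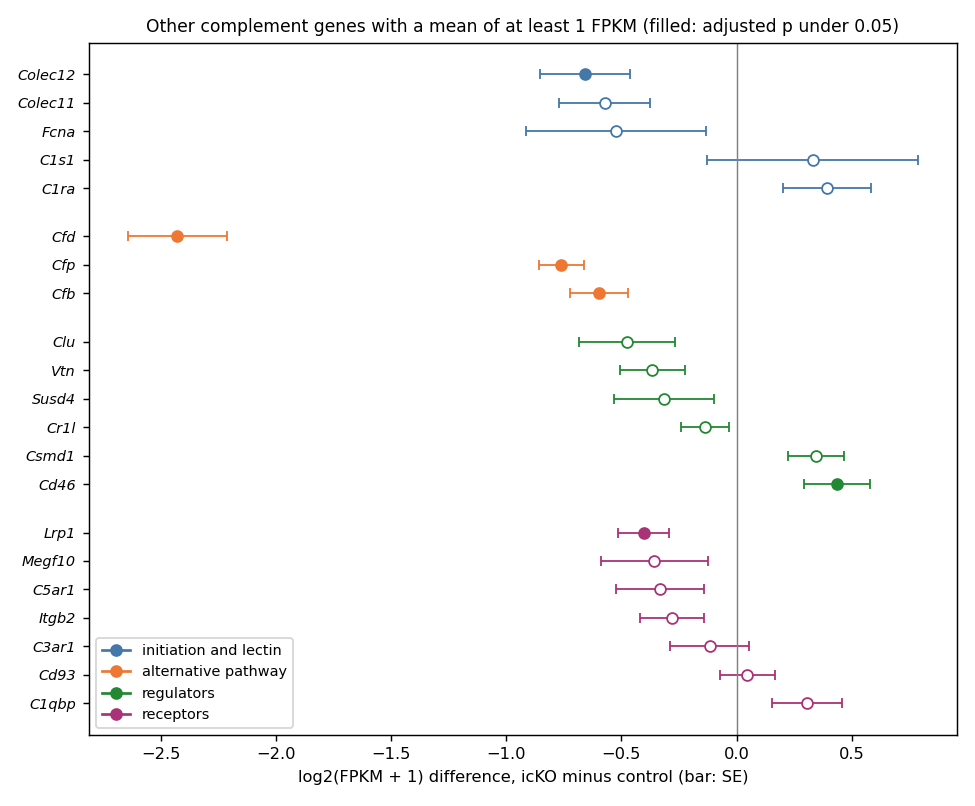
Difference between icKO and control on the log2(FPKM + 1) scale (point, with SE) for 21 other complement genes that passed the filter, coloured by role. Filled points passed the test: Colec12, Cfd, Cfp, Cfb and Lrp1 were lower and Cd46 higher in icKO nerves.

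A further list of transcription factors, interferon and cytokine signalling genes and glucocorticoid-induced genes moved both ways. It was chosen with earlier results of these data known, and any action of its genes on complement was not tested. Of 20 tested genes of this list, 8 rose, 4 fell and 8 did not pass (60% called, against 42.9% of all genes). Those that fell were the interferon factors Stat2, Irf7 and Irf9, and the glucocorticoid receptor gene Nr3c1. The 3 interferon factors were highest in control replicate 1. Across control replicates 1 to 3, Irf7 was at 6.77, 1.79 and 2.60, Irf9 at 10.3, 4.09 and 6.14, and Stat2 at 6.61, 4.35 and 4.63 FPKM. Fits with libraries left out are not given for this list. Those that rose included Cebpb and Cebpd, genes of the C/EBP family (Cebpd from 7.97 ± 0.78 to 33.1 ± 10.1 FPKM), Nfkbia, Rela, Stat3 and Il6ra, and the glucocorticoid-induced genes Fkbp5 and Tsc22d3 (SD, n = 3 each).

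The tested genes with the closest pattern across the 6 libraries were found by Pearson's r on log2(FPKM + 1), as a description. For the mean of the C1q chains they were Pfkp, Fmnl1, Pid1, C77080 and Gsn (r = 0.985 to 0.989). For C3 they were Nid1, Agpat1, Hspa5, Has2 and Ywhab (r = 0.996 to 0.998), and for C4b they were Bmp1, Prr12, Nr6a1, Zcchc8 and Synj1 (r = 0.99 to 0.997). For Serping1 they were Ccdc8, Sipa1, Sdc1, Ppp2r1b and Thbd (r = 0.977 to 0.995).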

How the data were processed

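Polyadenylated RNA of 6 sciatic nerve libraries was analysed, 3 control and 3 icKO, grouped by the labels. The authors deposited their values as FPKM, 1 table with 55335 genes. The submitters' processing notes name build GRCm39 and, with no role or order, StringTie 1.3.1c, STAR, FastQC 0.11.2 and DESeq2 1.16.1. How strand and multi-mapping reads were treated is not given in the sources. Because FPKM divides by the library total, abundant transcripts lower all others. Symbols were matched for 55154 IDs (181 had none) through GENCODE M21, an annotation of GRCm38. Whole fragments were not recovered: in single-transcript genes 33.1% to 33.9% of low values lay within 0.05 of a whole step. Depth was read from the most frequent low step.

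limma 3.58.1 (R 4.3.3) was fitted on log2(FPKM + 1) over the 12860 genes whose mean FPKM was at least 1, two-sided, with a variance trend and Benjamini-Hochberg adjustment over all of them. The scale understates changes of low genes. Members, lists and tests were chosen with earlier results of these data known. All 9 members are named, with every called gene of the other complement lists. Genes not reported here were left out of the lists and their counts, but not of the fit. Of the uncalled complement genes, some that act with or on the members were named, and not all. Genes of cell type and input lists were named where called, and for C1q, C3, C4b and Serping1 the 5 genes with the highest r. On simulated data for icKO against control over 12860 genes with 200 changed, 72% of log2 changes of 1 and 96% of 2 were recovered, with 13 false calls. A change in as large a share of genes as in these data was not simulated. Python 3.11.15 was used for sequences and figures.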

Additional observations from a re-analysis of the deposited data

How the results depend on the processing

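Alternatives changed the pseudocount (0.1, 0.01), the filter (none, or 5 FPKM), the scaling (TPM, median of ratios, quantile) or the model (replicate block, no trend, robust estimation, muscle covariate), or left out 1 library or both muscle-rich ones. C3, C4b and Cd55 kept their direction and call in all 18. Of the 9 members 4 passed in the 11 alternatives that kept all 6 libraries (20% to 48% of all genes called). When single libraries were left out, 3 to 6 passed (29.2% to 42.4% of all genes called). Of the 21 tested other complement genes 6 passed in the reported fit (42.9% of all genes called). With single libraries left out 3 to 8 passed (3 without control replicate 2), and 10 without both muscle-rich libraries (38% of all genes called). The sign of C1qc turned without control replicate 2 (0.17) or 3 (0.069), and that of Serping1 without control replicate 2 (0.012) or icKO replicate 2 (0.041), none passing. Without both muscle-rich libraries C1qc was at -0.50, now past the threshold, and Serping1 at -0.44, not past it. The C1q level relative to macrophage markers was 0.25 higher in icKO libraries and 0.37 higher with a pseudocount of 0.01. It was 0.038 higher without Cd74 and Fcrls, the 2 markers that fell. That alternative was added after the data were seen, and it must narrow the gap. The causes of the other changes were not tested. With the replicate block 4 members and 5 other complement genes passed, and 35.7% of all genes. Same-numbered libraries did not deviate together (r = -0.10, 0.043 and -0.055). With n = 3 per group this cannot decide whether the numbers pair libraries by litter or day, which the labels do not give. Depth limits the precision of genes near the filter.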
